A study of Mus musculus with 12 samples.

Results

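Amino acid transporters of the Slc1a, Slc3a, Slc6a, Slc7a, Slc36a, Slc38a and Slc43a families were followed through mouse preimplantation development, during arrest by the MEK inhibitor U0126 and after its removal. The members were all genes on the array whose symbol starts with one of these 7 family names, which gave 63 of 18194 named genes and 125 of 45101 probe sets. Of the 63, 3 (Slc7a6os, Slc36a1os and Slc6a19os) are genes on the opposite strand that only share a name, so the families held 60 transporter genes. Each gene was represented by its probe set with the highest mean over 12 arrays, and its level is log2(intensity + 1) throughout. Genes at level 5 or more on at least 2 arrays were tested: 27 of the 60 transporters, among 9930 genes in all.

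The study asked whether the ERK MAP kinase pathway is needed for preimplantation development. ICR mouse embryos formed 6 groups of 2 arrays each. Untreated controls had 2 cells at day 1.5, from 4 to 8 cells at day 2.5, and were morulae or blastocysts at day 3.5. Another group was held at 4 cells in 20 µM U0126 until day 2.5, and the last groups were freed from that arrest and taken at day 3.5, with 8 cells, or at day 4.5, as morulae or blastocysts. No genotype other than the strain is labelled. The series mentions 2 independent experiments. Whether the arrays of a group came from separate mice or cultures is not labelled, so p-values measure the spread between these arrays, which may be technical.

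Amino acid transporters move amino acids and related small molecules across the plasma or lysosomal membrane, and several work only as pairs of a heavy and a light chain. In the early mouse embryo, glycine and other organic osmolytes taken up from the oviduct fluid help to control cell volume. At the blastocyst stage, leucine and arginine uptake acts upstream of mTORC1, the kinase complex that couples amino acid supply to growth and to trophoblast outgrowth. The families also include carriers of creatine, taurine, neurotransmitters and, for Slc43a3, purine nucleobases.

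Replicate arrays correlated at r between 0.955 and 0.980 over all tested genes, lowest for the U0126 pair. Of 9 embryo markers on the array, between 4 and 9 were above level 5 in each group. All 8 cumulus and granulosa cell markers and all 6 sperm markers on the array stayed below level 5 on every array. Of the 5 oviduct markers on the array, Ovgp1 was above 5 on replicate 2 of control day 1.5 (5.75), control day 2.5 (5.37) and U0126 (6.35), and the other 4 stayed below 5 on every array. Blood and immune markers had summed intensities of 144.5 and 208.3 on the U0126 arrays against 75.3 and 81.0 on the control day 2.5 arrays, with Cd68, a lysosomal protein, at 7.29 and 6.50 against 4.62 and 4.31, while Ptprc, Hba-a1, Alas2, Lyz2 and Csf1r stayed below 5 on every array. The remaining marker of the 7, Cd74, was lower under U0126 (2.95 and 2.94) than at control day 2.5 (3.69 and 3.20), and was above 5 only on replicate 1 of control day 3.5 (5.34). The part of these cells in the results was not tested. RNA came from whole embryos, so fewer cells of one type and less RNA per cell cannot be told apart.

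A first reading of the families is which of them were measured above background at all. In the Slc1a family of glutamate and neutral amino acid carriers, 3 of 7 genes were tested. Slc1a2, Slc1a3, Slc1a6 and Slc1a7, which carry glutamate in brain and other tissues, never rose above level 5. Of the 2 heavy chains, Slc3a2 (CD98) was tested and Slc3a1, the partner of the cystine carrier Slc7a9, was not. The Slc6a family, which takes up neurotransmitters, osmolytes and amino acids with sodium and chloride, had 7 of 20 genes tested. Its members never above 5 were Slc6a2, Slc6a3, Slc6a4, Slc6a5, Slc6a11, Slc6a12, Slc6a16, Slc6a17, Slc6a18, Slc6a19, Slc6a20a, Slc6a20b and Slc6a21. This set holds the carriers of noradrenaline, dopamine and serotonin, the betaine carrier Slc6a12 and both copies of Slc6a20, a proline and betaine carrier. In the Slc7a family of cationic carriers and light chains, 6 of 15 transporters were tested. Slc7a4, Slc7a9, Slc7a10, Slc7a11, Slc7a12, Slc7a13, Slc7a14 and Slc7a15 never passed level 5. The cystine importer Slc7a11 came closest, with 4.67 and 4.89 on the control day 1.5 arrays. The arginine carrier Slc7a2 was above 5 on 1 array only, at 5.03 in replicate 2 of control day 1.5, and was not tested. Of the proton-coupled Slc36a family, Slc36a1 was tested and Slc36a2, Slc36a3 and Slc36a4 were never above 5. The Slc38a family of sodium-coupled neutral amino acid carriers was the most fully represented, with 7 of 9 genes tested and only Slc38a3 and Slc38a5 never above 5. Slc43a1 was below 5 throughout and its relatives Slc43a2 and Slc43a3 were tested. In all, 32 of 60 transporters, and the opposite-strand genes Slc6a19os and Slc36a1os, were never above level 5, and no untested gene had another probe set that was. A value below 5 says that the probe set was not clearly measured, not that the transcript was missing.

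**Figure D1:**
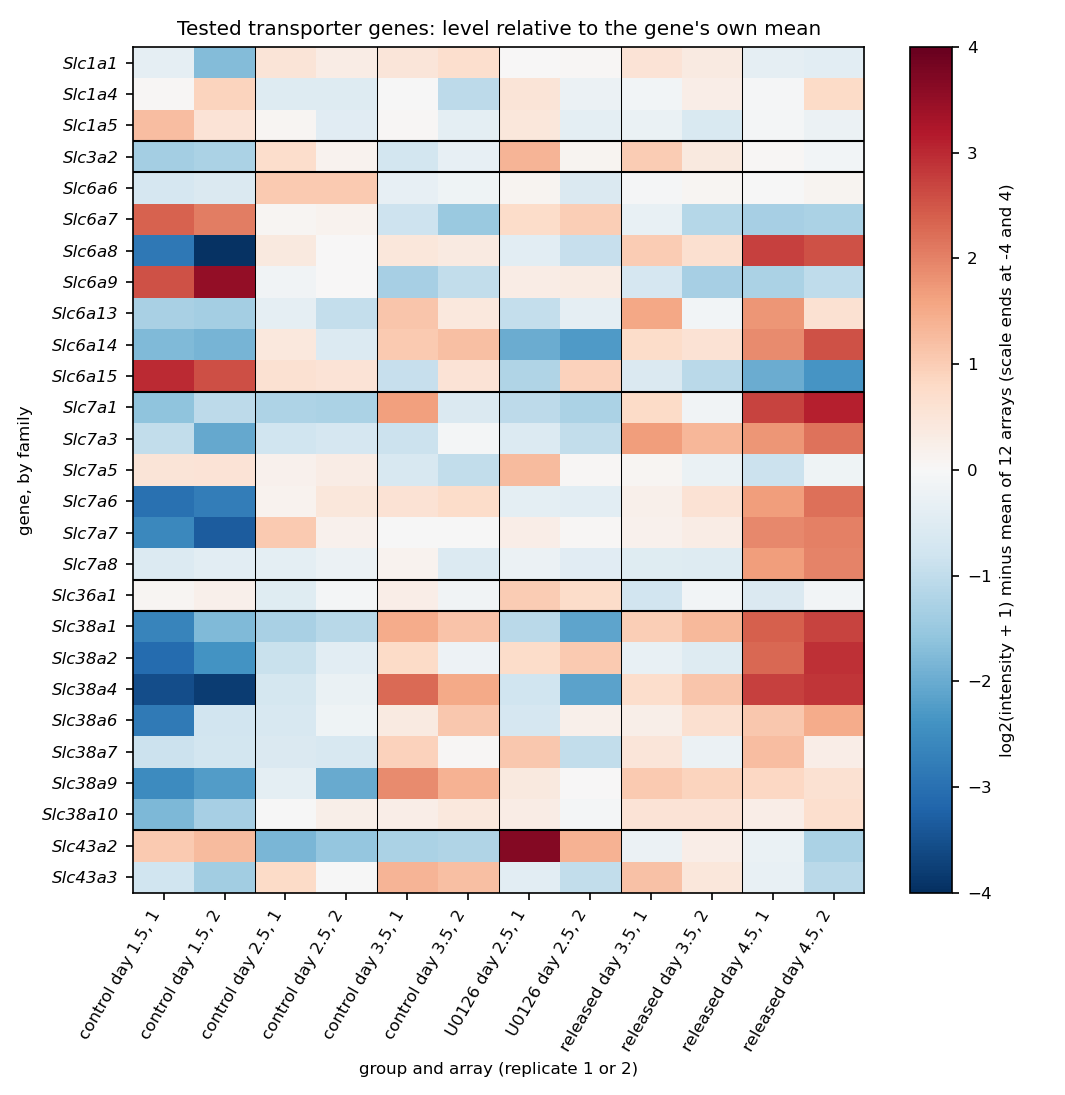
Level of each of the 27 tested transporters on each of the 12 arrays, as log2(intensity + 1) minus the gene's own mean over the arrays (colour), with genes by family in the vertical and arrays by group in the horizontal direction. Slc6a9, Slc6a15 and Slc6a7 were above their own mean on the control day 1.5 arrays, Slc43a2 on the U0126 arrays, and 13 of the 27 had their highest group mean in released day 4.5 embryos.

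The group in which a transporter peaked differed between genes, including genes of the same family. Control day 1.5 embryos held the highest mean of 5 genes: the neutral amino acid carriers Slc1a4 and Slc1a5, the proline carrier Slc6a7, the glycine carrier Slc6a9 and the neutral amino acid carrier Slc6a15. Control day 2.5 held that of the taurine carrier Slc6a6 alone. At control day 3.5 the glutamate carrier Slc1a1, the lysosomal arginine sensor Slc38a9 and the nucleobase carrier Slc43a3 peaked. U0126 embryos held the highest means of Slc3a2, Slc7a5, Slc36a1 and Slc43a2, and released day 3.5 embryos that of Slc38a10. The other 13 peaked in released day 4.5 embryos: Slc6a8, Slc6a13, Slc6a14, Slc7a1, Slc7a3, Slc7a6, Slc7a7, Slc7a8, Slc38a1, Slc38a2, Slc38a4, Slc38a6 and Slc38a7. Of these, Slc7a8 had to peak there, since it reached level 5 in no other group. Among all 9930 tested genes, 23.5% peaked in that group and 30.7% at control day 1.5. These are positions of group means, given as a description and without a test.

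Between control day 1.5 and day 2.5, the span from the 2-cell stage to 4 to 8 cells, 18 of the 27 transporters passed limma's moderated test at a Benjamini-Hochberg adjusted p under 0.05, 13 of them higher and 5 lower at day 2.5. Of all tested genes 55.4% passed, 28.0% higher and 27.4% lower, so a high count is the background here. The median difference was 1.02 for the transporters and 0.09 for all genes. The creatine carrier Slc6a8, the light chains Slc7a6 and Slc7a7, their heavy chain Slc3a2 and 5 Slc38a genes rose, while the glycine and proline carriers Slc6a9 and Slc6a7 fell.

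Among the risers, Slc6a8, the creatine carrier, read 6.57 and 5.48 at day 1.5 and 9.83 and 9.45 at day 2.5. Its log2 difference was 3.62 ± 0.36 (SE, n = 2 per group), or 12.3-fold, with adjusted p = 1.49e-05. The light chains that pair with Slc3a2 to exchange cationic for neutral amino acids moved the same way: Slc7a6 read 6.80 and 7.01 at day 1.5 and 9.91 and 10.24 at day 2.5. Its difference was 3.17 ± 0.28 (adjusted p = 5.96e-06). Slc7a7 went from 3.38 and 2.64 to a mean of 6.57 (SD 0.62, n = 2), a fitted difference of 3.56 ± 0.34 (adjusted p = 9.92e-06) and at least 2.96-fold when day 1.5 is set at level 5. Slc3a2 itself read 8.58 and 8.65 at day 1.5 and 10.62 and 10.06 at day 2.5, a difference of 1.73 ± 0.41 (adjusted p = 0.00415). In each of these 4 genes both day 2.5 arrays lay above both day 1.5 arrays. That is a description, since the share of all tested genes with such separation was not counted. Slc7a1, Slc7a3 and Slc7a5 did not pass, with differences of 0.08, 0.78 and -0.29 (adjusted p = 0.915, 0.117 and 0.552). The light chain Slc7a5 was already at 6.98 and 7.03 at day 1.5.

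Sodium-coupled Slc38a carriers formed the next group, with 5 of 7 tested members higher. Slc38a4, an imprinted gene, read 3.71 and 3.49 at day 1.5 and 6.57 and 7.02 at day 2.5. Its fitted difference was 3.19 ± 0.42 (adjusted p = 9.99e-05), at least 3.46-fold from level 5. The other probe set of Slc38a4 did not pass in this step (1.31, adjusted p = 0.0605). Slc38a2 read 3.39 and 4.09, then 5.59 and 6.06, a difference of 2.08 ± 0.39 (adjusted p = 1.00e-03) and at least 1.77-fold from level 5. Slc38a10 rose by 1.67 ± 0.28 (adjusted p = 4.73e-04) from levels of 6.12 and 6.60. Other probe sets of Slc38a10 gave 1.17, 0.84 and 0.55 (adjusted p = 0.0359, 0.0209 and 0.515). Slc38a1 and Slc38a9 passed narrowly, with differences of 1.02 ± 0.39 and 1.17 ± 0.45 (adjusted p = 0.0447 and 0.0445). The other probe set of Slc38a1 did not pass in this step (0.24, adjusted p = 0.618). Slc38a1 did not pass without replicate 1 of control day 1.5 or without either day 2.5 array (adjusted p from 0.0970 to 0.286). The call of Slc38a9 was lost without either day 1.5 array or replicate 1 of day 2.5 (0.0887 to 0.446), and its day 2.5 arrays were far apart at 5.52 and 3.90. Slc38a6 passed only with the replicate number as a block (1.37, adjusted p = 0.0112 against 0.0668 without it).

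Further risers were Slc6a6, which takes up taurine, with 1.67 ± 0.27 (adjusted p = 4.26e-04), and Slc1a1 with 1.45 ± 0.38 (adjusted p = 0.00729). The other probe sets of Slc1a1 gave 3.22 and 0.98 (adjusted p = 3.44e-06 and 0.175). Slc43a3 was higher by 1.47 ± 0.41 (adjusted p = 0.0105), a call lost without replicate 2 of day 1.5 (0.0824) or replicate 1 of day 2.5 (0.0966). Slc6a14, a carrier of neutral and cationic amino acids, read 4.46 and 4.35 at day 1.5 and 6.64 and 5.68 at day 2.5. The fitted difference was 1.75 ± 0.35 (adjusted p = 0.00139), at least 2.23-fold from level 5. Its second probe set did not pass in this step (0.15, adjusted p = 0.637).

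The transporters that fell after the 2-cell stage were led by Slc6a9, which imports glycine. It read 8.01 and 8.96 at day 1.5 and 5.32 and 5.48 at day 2.5, a difference of -3.09 ± 0.35 (adjusted p = 3.23e-05), or 8.52-fold lower. Slc6a7, the proline carrier, went from 7.16 and 6.85 to 4.88 and 4.96, a difference of -2.08 ± 0.34 (adjusted p = 3.70e-04). Both day 2.5 arrays lay below level 5, which makes the fall at least 4.00-fold. Slc43a2, a carrier of large neutral amino acids, read 6.71 and 6.93 at day 1.5 and 3.82 and 4.10 at day 2.5. It fell by at least 3.53-fold (fitted -2.86 ± 0.60, adjusted p = 0.00210), whereas its second probe set did not pass in this step (-0.96 ± 0.55, adjusted p = 0.164). Slc6a15 went from 8.97 and 8.58 to 6.62 and 6.53 (-2.20 ± 0.62, adjusted p = 0.0115), a call lost without replicate 1 of day 1.5 (0.0684). Slc1a5, the ASCT2 glutamine carrier, was lower by -1.07 ± 0.37 (adjusted p = 0.0291). It did not pass without replicate 1 of day 1.5 (0.187) or replicate 2 of day 2.5 (0.175). Slc1a4 did not pass, at -0.97 ± 0.45 (adjusted p = 0.0891).

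**Figure D2:**
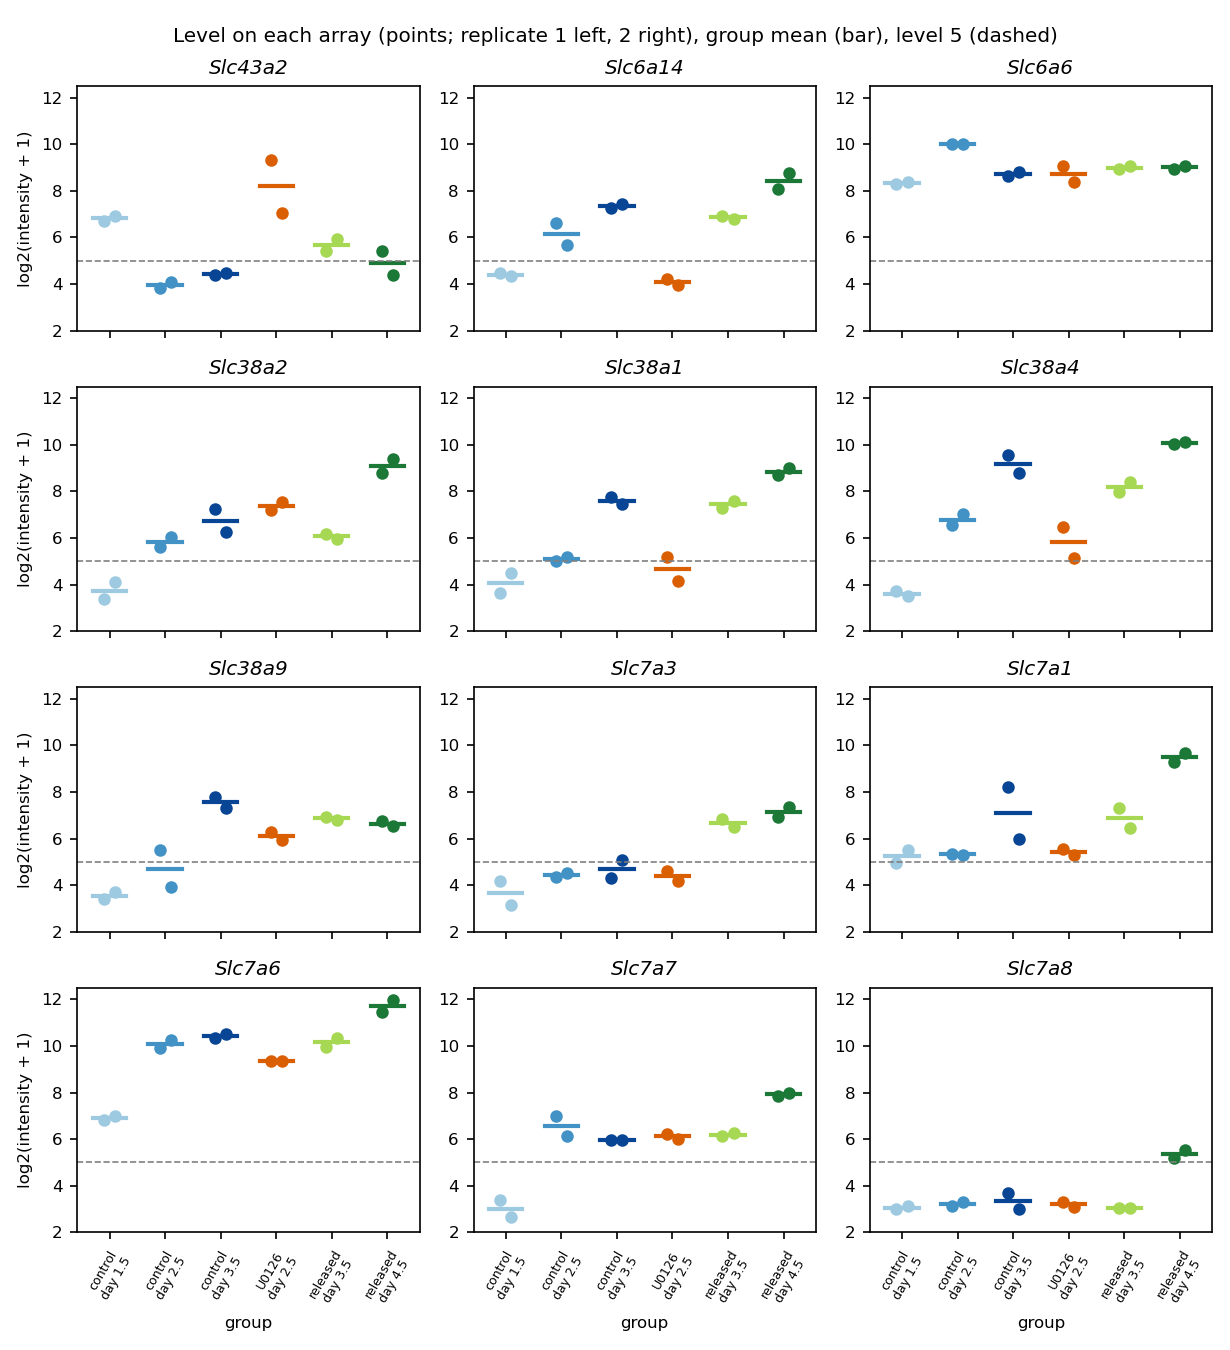
Level, log2(intensity + 1), of 12 transporters in the 6 groups, with 1 point per array, a bar at the mean of each group's 2 arrays and a dashed line at level 5. Slc43a2 was at 9.33 and 7.05 on the U0126 arrays against 3.82 and 4.10 at control day 2.5, and Slc7a8 was above level 5 on the released day 4.5 arrays only.

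From control day 2.5 to day 3.5, 7 of 27 transporters passed, 4 higher and 3 lower, against 21.6% of all tested genes (13.4% higher and 8.28% lower). The median difference was 0.26 for the transporters and 0.09 for all genes. Once each array was centred on its median the split was 3 higher and 5 lower. The risers were Slc38a9, Slc38a1, Slc38a4 and Slc6a14. Slc38a9 read 5.52 and 3.90 at day 2.5 and 7.80 and 7.30 at day 3.5, a difference of 2.84 ± 0.45 (adjusted p = 0.00210). Slc38a1 went from 5.01 and 5.19 to 7.78 and 7.44 (2.51 ± 0.39, adjusted p = 0.00199). Slc38a4 went from 6.57 and 7.02 to 9.55 and 8.80 (2.38 ± 0.42, adjusted p = 0.00374). In these 3 genes the day 2.5 and day 3.5 arrays did not overlap, and the share of all tested genes without overlap was not counted. The fold was 5.68 for Slc38a1 and 5.22 for Slc38a4, and none is given for Slc38a9, which was above level 5 on only 1 of the 2 day 2.5 arrays. Slc6a14 rose by 1.18 ± 0.35 to 7.26 and 7.41 (adjusted p = 0.0341), which did not pass without replicate 2 of day 2.5 or without either day 3.5 array (0.125 to 0.241).

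All 3 transporters that fell over this day belong to the Slc6a family. Slc6a6 went from a mean of 10.01 (SD 0.0066, n = 2) at day 2.5 to 8.62 and 8.80, a difference of -1.30 ± 0.27 (adjusted p = 0.00840) that was lost without replicate 1 of day 3.5 (0.0740). Slc6a9 declined further, to 4.13 and 4.48 (-1.09 ± 0.35, adjusted p = 0.0485), and did not pass without any 1 of the 4 arrays (0.0840 to 0.255). Slc6a7 was below level 5 in both groups, so its difference of -1.27 ± 0.34 (adjusted p = 0.0227) lies among values that were not clearly measured. It did not pass without either day 2.5 array or without replicate 2 of day 3.5 (0.0845 to 0.136). Slc7a1, which imports arginine and lysine, read 8.21 and 5.99 at day 3.5 and did not pass (1.77 ± 0.59, adjusted p = 0.0548). With the replicate number as a block Slc7a1 passed (adjusted p = 0.0418), as did Slc43a3 (0.91, adjusted p = 0.0162) and Slc6a13 (1.41, adjusted p = 0.0409), all higher at day 3.5. Without 1 array the count of calls was 4 or 5, with 4 left without replicate 2 of day 2.5 or replicate 1 of day 3.5.

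In embryos held in U0126, compared with controls of the same day, 5 of 27 transporters passed, 3 higher and 2 lower, against 13.9% of all tested genes (9.21% higher and 4.72% lower). The median difference was -0.00 for the transporters and 0.11 for all genes. The carriers Slc43a2, Slc38a2 and Slc36a1 were higher, and Slc6a14 and Slc6a6 were lower. After median centring 2 were higher and 3 lower. With the replicate number as a block, 9 passed, 4 higher and 5 lower. Of all tested genes 2061 passed with the block and 1384 without it. The block added Slc38a9 as higher (1.40, adjusted p = 0.0321), and Slc43a3 (-1.07, adjusted p = 0.0120), Slc6a8 (-0.89, adjusted p = 0.0396) and Slc7a6 (-0.70, adjusted p = 0.0437) as lower. A fit on these 4 arrays alone called 0 of all tested genes by limma, and so 0 transporters. Its count therefore cannot tell the transporters from other genes. In that fit 8 transporters were at an unadjusted p under 0.05.

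Slc43a2 had the largest difference of the transporters under U0126. It read 9.33 and 7.05 on the U0126 arrays against 3.82 and 4.10 on the controls. The difference was 4.23 ± 0.60 (adjusted p = 0.00252), and it passed without each of the 4 arrays in turn. By the mean of the U0126 arrays, 8.19, it was at least 9.13-fold from level 5, and replicate 2 alone lay nearer to that level. Both U0126 arrays were above all 10 other arrays, although the pair differed from each other by more than the controls did. The control day 1.5 arrays, at 6.71 and 6.93, came next. A second probe set of Slc43a2 was also higher under U0126 (2.39 ± 0.55, adjusted p = 0.0195).

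Slc38a2, a carrier of small neutral amino acids known to respond to amino acid supply, read 7.20 and 7.53 under U0126 and 5.59 and 6.06 in controls. The difference was 1.54 ± 0.39 (adjusted p = 0.0279), a call lost without any 1 of the 4 arrays. Slc36a1, which exports amino acids from the lysosome, read 6.45 and 6.17 against 4.93 and 5.36. Its difference of 1.16 ± 0.31 (adjusted p = 0.0355) was likewise lost without any 1 of the arrays (0.0568 to 0.204).

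On the lower side, Slc6a14 read 4.23 and 3.95 under U0126 against 6.64 and 5.68 in controls. It was at least 2.23-fold lower (fitted -2.07 ± 0.35, adjusted p = 0.00483) and passed without each array in turn. The U0126 arrays were close to the control day 1.5 arrays at 4.46 and 4.35, all 4 below level 5. The taurine carrier Slc6a6 read 9.08 and 8.38 against a control mean of 10.01 (-1.27 ± 0.27, adjusted p = 0.0136), a call lost without either control array or replicate 2 of U0126 (0.0598 to 0.0780). Its second probe set gave -0.67 ± 0.71 and did not pass (adjusted p = 0.615). The heavy chain Slc3a2, at 11.29 and 10.05, and its light chain Slc7a5, at 7.74 and 6.53, overlapped the controls in range, with differences of 0.33 ± 0.41 and 0.42 ± 0.39 (adjusted p = 0.664 and 0.537). Without 1 array the count of calls was 2 to 4, with 2 left without replicate 2 of control or of U0126 and 3 without replicate 1 of control.

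**Figure D3:**
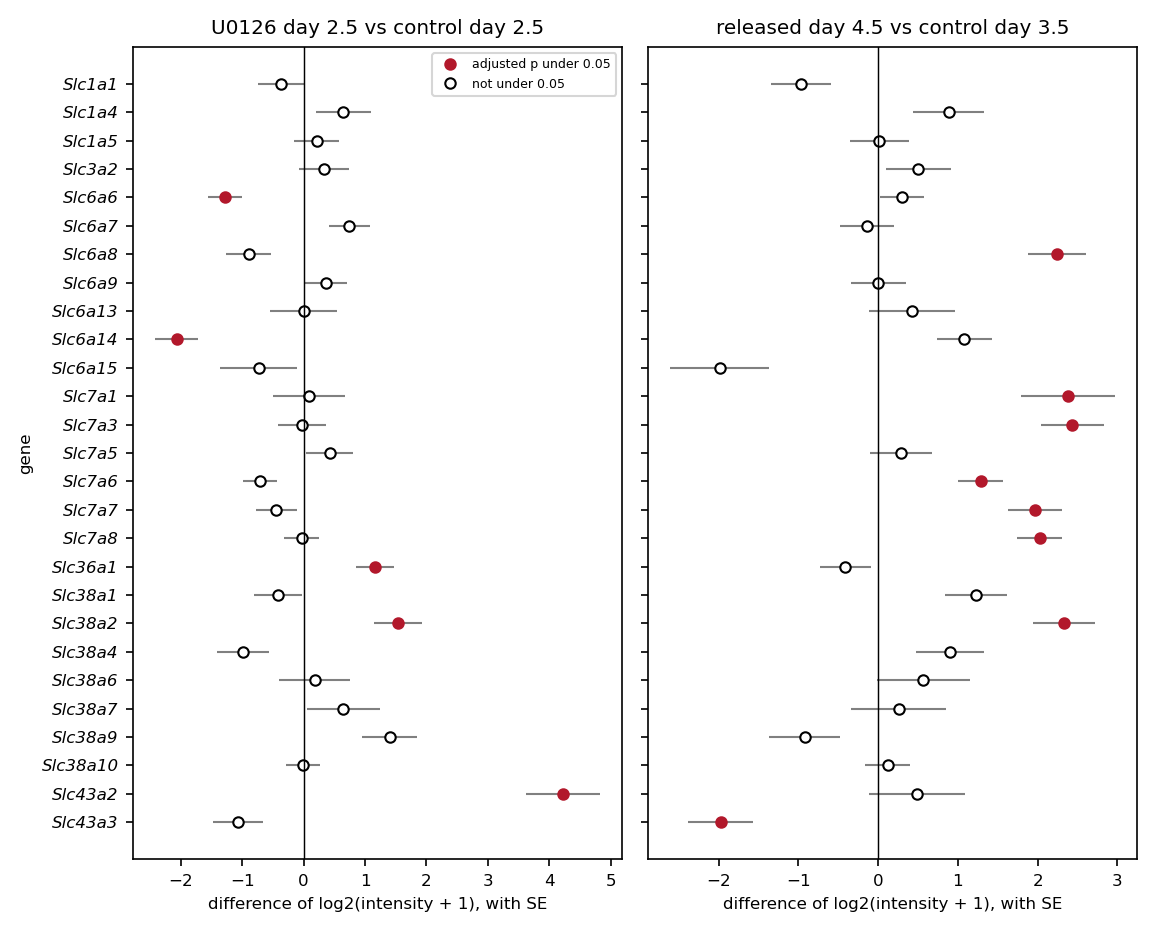
Log2 difference with its SE, from limma, of each tested transporter in U0126 against control embryos at day 2.5 and in released day 4.5 against control day 3.5 embryos; filled points passed at an adjusted p under 0.05. Slc43a2 at 4.23 and Slc6a14 at -2.07 are the extremes of the first comparison, and the 7 that passed upward in the second, Slc7a8 included, lie between 1.28 and 2.44.

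After release from U0126, embryos of day 3.5 differed from the arrested embryos in 11 of 27 transporters, 6 higher and 5 lower, against 28.2% of all tested genes (13.7% higher and 14.5% lower). The medians were 0.25 for the transporters and -0.02 for all genes. Slc6a14 returned from 4.23 and 3.95 to 6.94 and 6.78, a difference of 2.77 ± 0.35 (adjusted p = 4.04e-04), at least 3.63-fold from level 5. Slc38a1 went from 5.20 and 4.17 to 7.28 and 7.60 (2.76 ± 0.39, adjusted p = 7.99e-04). Slc38a4 went from 6.48 and 5.15 to 7.98 and 8.40 (2.38 ± 0.42, adjusted p = 0.00255). These 3 carriers also rose in control embryos between day 2.5 and day 3.5.

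Slc7a3, an importer of arginine and lysine, had been below level 5 in arrested embryos at 4.62 and 4.19 and reached 6.82 and 6.50. The fitted difference was 2.25 ± 0.39 (adjusted p = 0.00227), at least 3.16-fold from level 5. Outside the released groups Slc7a3 reached level 5 only on replicate 2 of control day 3.5 (5.10), so it was tested through the released arrays. Slc43a3 rose by 1.51 ± 0.41 (adjusted p = 0.0197), a call lost without replicate 2 of U0126 (0.104) or replicate 1 of released day 3.5 (0.134). Slc6a8 rose by 1.50 ± 0.36 (adjusted p = 0.0118) to 10.43 and 10.06, which was lost without the same arrays (0.0693 and 0.0770).

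All 3 carriers that were higher in the arrest fell on release; both comparisons use the same U0126 arrays. Slc43a2 dropped to 5.43 and 5.93, a difference of -2.51 ± 0.60 (adjusted p = 0.0111) that did not pass without replicate 1 of released day 3.5 (0.0677). Its second probe set also fell (-1.77 ± 0.55, adjusted p = 0.0384). Slc36a1 went to 4.67 and 5.31 (-1.32 ± 0.31, adjusted p = 0.0108), lost without replicate 1 of U0126 (0.0525) or of released day 3.5 (0.0894). Slc38a2 went to 6.19 and 5.94 (-1.30 ± 0.39, adjusted p = 0.0313), lost without any 1 array (0.0543 to 0.139). Slc6a7 fell from 5.54 and 5.79 to 4.52 and 3.65 (-1.58 ± 0.34, adjusted p = 0.00633), which was lost without replicate 2 of released day 3.5 (0.0596). Slc6a9 fell from 5.74 and 5.77 to 4.78 and 4.13 (-1.30 ± 0.35, adjusted p = 0.0191), lost without either U0126 array or replicate 2 of released day 3.5 (0.0554 to 0.139). The block added Slc6a13 (1.37, adjusted p = 0.0393) and Slc7a6 (0.79, adjusted p = 0.0169) as higher. The count of calls fell to 6 without replicate 1 of released day 3.5 and was 8 or 9 without another array.

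Released day 3.5 embryos had 8 cells and control day 2.5 embryos 4 to 8 cells. The released embryos were a day older, so the arrest, the stage and the age cannot be told apart. The embryo marker Krt8 read 13.18 and 13.17 in released embryos, 9.98 and 9.19 in these controls and 13.84 and 12.98 at control day 3.5. Pou5f1 was closer, at 11.77 and 10.64 against 11.42 and 10.53 in these controls. Krt18 read 12.23 and 12.28 against 9.02 and 8.13, and Cdx2 9.46 and 8.91 against 7.69 and 7.13. Nanog read 10.90 and 10.36 against 8.56 and 8.23. Zfp352 was also higher, at 9.50 and 9.74 against 6.53 and 4.96, with 2.94 and 4.07 at control day 3.5. Gata6 and Zp3 overlapped these controls, and Gdf9 was lower, at 6.03 and 5.90 against 6.33 and 7.52. Of 27 transporters 4 differed, 3 higher and 1 lower, against 12.7% of all tested genes (8.61% higher and 4.05% lower). The median was 0.44 for the transporters and 0.09 for all genes. Slc38a1 was higher in the released embryos by 2.34 ± 0.39 (adjusted p = 0.00576), a call lost without replicate 2 of released day 3.5 (0.0512). Slc7a3, tested through the released arrays, read 6.82 and 6.50 against 4.37 and 4.51 and was at least 3.16-fold higher (fitted 2.22 ± 0.39, adjusted p = 0.00725). Slc38a9 read 6.94 and 6.81 against 5.52 and 3.90 (2.16 ± 0.45, adjusted p = 0.0127), lost without replicate 2 of control or without either released array (0.0630 to 0.0709). Slc6a6 was the lower gene, at 8.92 and 9.05 against a control mean of 10.01 (-1.02 ± 0.27, adjusted p = 0.0362), lost without any 1 array (0.127 to 0.149). Its second probe set did not pass in this comparison (-1.49 ± 0.71, adjusted p = 0.227). With the block Slc38a4 passed as higher (1.40, adjusted p = 0.0415). Without 1 array the count of calls was 1 to 3. It was 1 without replicate 2 of released day 3.5, and 2 without replicate 1 of released day 3.5 or replicate 2 of control. These control day 2.5 arrays also serve the U0126 comparison and both control steps, so the comparisons are not independent of each other.

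At the morula to blastocyst stage, released day 4.5 embryos had 8 of 27 transporters that differed from control day 3.5 embryos, 7 higher and 1 lower, where 5.88% of all tested genes passed (3.85% higher and 2.03% lower). The medians were 0.48 for the transporters and -0.03 for all genes. The released embryos were a day older than the controls, so the arrest and the age cannot be told apart. Slc7a8 was tested only because it reached level 5 on the 2 released day 4.5 arrays, so it had to be higher there. Without it 7 of 26 transporters passed, 6 higher, and 4 of the 5 other tested Slc7a genes were among these, with Slc6a8 and Slc38a2. One of those Slc7a genes, Slc7a3, passed the filter only through the released arrays of day 3.5 and day 4.5 together with 1 control day 3.5 array.

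Both tested importers of arginine and lysine were higher. Slc7a3 read 6.94 and 7.33 in released and 4.30 and 5.10 in control embryos, a difference of 2.44 ± 0.39 (adjusted p = 0.00723) that was lost without replicate 2 of released day 4.5 (0.0694), and only 1 of its control arrays was above level 5. Slc7a1 read 9.29 and 9.67 against 8.21 and 5.99 (2.38 ± 0.59, adjusted p = 0.0405). The control pair of Slc7a1 was widely spread, and its call was lost without replicate 2 of control or without either released array (0.129 to 0.284).

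The heavy chain Slc3a2 did not pass (0.50 ± 0.41, adjusted p = 0.549), while its light chains Slc7a6 and Slc7a7 did and Slc7a5 did not. Slc7a7 read 7.87 and 7.97 against 5.95 and 5.95 (1.97 ± 0.34, adjusted p = 0.00887), lost without replicate 2 of control or without either released array (0.0605 to 0.0929). Slc7a6 read 11.44 and 11.97 against 10.34 and 10.50 (1.28 ± 0.28, adjusted p = 0.0249), lost without any 1 array (0.0590 to 0.208). Slc7a8, a light chain for neutral amino acids, read 5.21 and 5.53 in released day 4.5 embryos and no more than 3.69 on any of the other 10 arrays. Its difference of 2.03, at least 1.29-fold from level 5, is given as a description without a test, because the filter fixed its direction. Slc7a5 read 5.60 and 6.29 against 5.82 and 5.48 and did not pass (0.29 ± 0.39, adjusted p = 0.755).

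Outside the Slc7a family, Slc38a2 read 8.77 and 9.38 in released and 7.23 and 6.26 in control embryos (2.33 ± 0.39, adjusted p = 0.00796), lost without replicate 2 of either group (0.102 without the control and 0.0819 without the released array). Slc6a8 read 12.16 and 11.97 against 9.88 and 9.77, a difference of 2.24 ± 0.36 (adjusted p = 0.00737) that was lost without replicate 2 of control or either released array (0.0501 to 0.0826). A second probe set of Slc6a8 gave -0.36 in the same comparison (adjusted p = 0.707), so the higher level rests on 1 of its 2 probe sets. Slc43a3 was the transporter that was lower, at 8.13 and 7.35 against 9.78 and 9.64 (-1.97 ± 0.41, adjusted p = 0.0203). Its call was lost without either control array or replicate 2 of released day 4.5 (0.0754 to 0.179). The count of calls depended on single arrays: it was 1 without replicate 2 of released day 4.5, 2 without replicate 2 of control, 4 without replicate 1 of released day 4.5 and 6 without replicate 1 of control.

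From released day 3.5 to day 4.5, 10 of 27 transporters passed, 9 higher and 1 lower, against 13.7% of all tested genes (7.37% higher and 6.37% lower). The medians were 0.28 for the transporters and -0.04 for all genes. Without Slc7a8, which had to rise here too, 9 of 26 passed, 8 of them higher. The released day 4.5 arrays are those of the preceding comparison. Slc38a2 rose from 6.19 and 5.94 to 8.77 and 9.38 (3.01 ± 0.39, adjusted p = 0.00130), which is 8.07-fold, and passed without each array in turn. Slc7a8 read 3.06 and 3.03 on the day 3.5 arrays and 5.21 and 5.53 on the day 4.5 arrays. Slc7a1 rose from 7.33 and 6.45 (2.59 ± 0.59, adjusted p = 0.0173), lost without replicate 2 of released day 3.5 or either day 4.5 array (0.0579 to 0.123). Slc38a4 rose from 7.98 and 8.40 to 10.02 and 10.13 (1.88 ± 0.42, adjusted p = 0.0168), lost without replicate 1 of day 3.5 or either day 4.5 array (0.0700 to 0.115).

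The smaller changes of this step were as follows. Slc6a8 rose by 1.82 ± 0.36 (adjusted p = 0.0103), lost without replicate 2 of released day 3.5 or either day 4.5 array (0.0600 to 0.0616), and its second probe set gave -0.75 (adjusted p = 0.239). Slc7a7 rose by 1.73 ± 0.34 (adjusted p = 0.00897), lost without replicate 1 of day 3.5 (0.0683) or replicate 2 of day 4.5 (0.0716). Slc6a14 rose by 1.56 ± 0.35 to 8.09 and 8.75 (adjusted p = 0.0154), lost without either day 3.5 array or replicate 2 of day 4.5 (0.0752 to 0.142). Slc7a6 rose by 1.54 ± 0.28 (adjusted p = 0.00651), lost without replicate 1 of day 3.5 (0.0628) or replicate 2 of day 4.5 (0.0708). Slc38a1 rose by 1.40 ± 0.39 to 8.69 and 8.99 (adjusted p = 0.0384), lost without any 1 array (0.0877 to 0.209). Slc43a3 fell by 1.51 ± 0.41 (adjusted p = 0.0354), lost without replicate 1 of day 3.5 (0.225) or replicate 2 of day 4.5 (0.249). The count of calls was 2 without replicate 2 of released day 4.5, 4 without replicate 1 of released day 3.5, and 6 without either of the other arrays.

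The control step from day 2.5 to 3.5 began at 4 to 8 cells, and the released step from day 3.5 to 4.5 began at 8 cells. Both ended as morulae or blastocysts. Start stage and age differed along with the arrest, so these cannot be told apart. The interaction term tests whether the 2 steps differed. It passed for 3 of 27 transporters, 2 with a larger and 1 with a smaller change in released embryos, against 2.34% of all tested genes (1.02% larger and 1.32% smaller). The medians were 0.21 for the transporters and -0.13 for all genes. The interaction of 2.21 for Slc7a8 followed from the filter, since the gene was tested only through its released day 4.5 arrays and lay below level 5 in the other 3 groups. Without it 2 of 26 passed, 1 in each direction. Slc7a7 changed by 1.73 in the released and by -0.61 in the control step (interaction 2.34 ± 0.48, adjusted p = 0.0336). Slc38a9 rose by 2.84 in the control step and changed by -0.25 in the released step (-3.09 ± 0.63, adjusted p = 0.0336), as it was already at 6.94 and 6.81 in released day 3.5 embryos. Each of the 3 calls was lost in 7 of the 8 fits that left out 1 array: Slc7a8 passed only without replicate 1 of control day 3.5 (otherwise 0.0569 to 0.106), Slc7a7 only without replicate 2 of control day 2.5 (0.0846 to 0.132), and Slc38a9 only without replicate 1 of control day 2.5 (0.0679 to 0.134). The count was therefore 1 without each of those 3 arrays and 0 without any other, where 7 to 9 transporters were at an unadjusted p under 0.05. With the replicate number as a block 6 passed, with Slc43a3 (adjusted p = 0.00905), Slc6a8 (0.0366) and Slc7a6 (0.0496) added. Of all tested genes 615 passed with the block, against 232 without it.

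**Figure D4:**
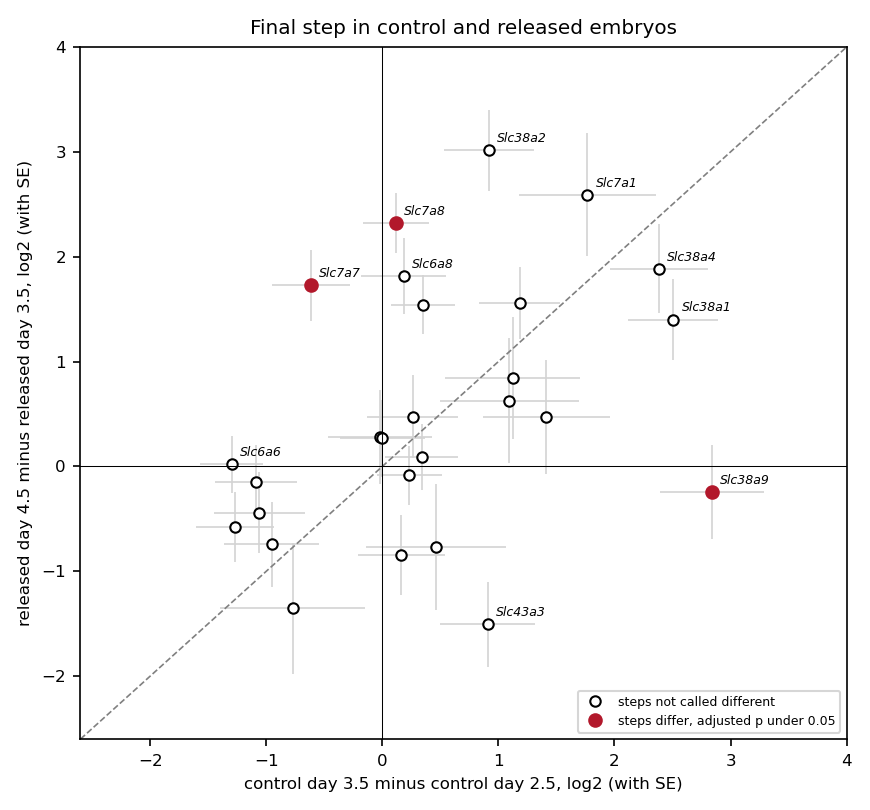
Change of each tested transporter over the released step, day 3.5 to 4.5, against its change over the control step, day 2.5 to 3.5, in log2 units with SE bars and a dashed line where both are equal; filled points passed the interaction test. Slc38a9 lies below the line at 2.84 and -0.25, and Slc7a7 and Slc7a8 lie above it.

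Of the 27 tested transporters, 5 passed in none of the 8 comparisons, of which Slc6a13 and Slc38a6 did pass with the replicate block, as given above. The neutral amino acid carrier Slc1a4 ranged from 4.20 to 6.13 over the 12 arrays, and the light chain Slc7a5 from 5.48 to 7.74. The GABA and taurine carrier Slc6a13 ranged from 2.79 to 5.91, with its values above 5 in control day 3.5, released day 3.5 and released day 4.5 embryos. Slc38a6 ranged from 3.67 to 7.97 and the lysosomal glutamine exporter Slc38a7 from 4.97 to 7.19. Replicates of Slc38a7 were far apart under U0126, at 7.04 and 4.97.

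Promoter sequence was at hand for 18 of the 27 tested transporters, as the 250 bases before each start in RefSeq's annotation of GRCm38.p6. Both strands were searched for TGANTCA, the AP-1 motif bound by Fos and Jun proteins, which act downstream of ERK, for TGATGNAA, the core of the amino acid response element, and for CACGTG, the E-box bound by lysosomal gene regulators. The 18 genes had 31 promoters, since several have more than 1 start. TGANTCA was in 4 of the 31 (1 each of Slc6a14, Slc7a1, Slc38a7 and Slc38a10), or 12.9%, and in 6.75% of 32851 promoters. TGATGNAA was in 2 of the 31, both of Slc7a7, and in 3.45% of all. CACGTG was in 2 of the 31, of Slc36a1 and Slc38a7, and in 6.02% of all. Of the 4 genes with TGANTCA, only Slc6a14 passed in limma for U0126 against control day 2.5. Slc7a1, Slc38a7 and Slc38a10 did not, with differences of 0.09, 0.65 and -0.01 (adjusted p = 0.949, 0.54 and 0.987). Whether the motif goes with a change under U0126 was not tested. The promoters of Slc6a14 (chrX:21714650-21714899, plus strand), lower in U0126, and of Slc7a1 (chr5:148399905-148400154, minus strand) and Slc7a7 (chr14:54417945-54418194, minus strand), higher in released day 4.5 embryos, are shown 5′ to 3′ with the motif in capitals.
Slc6a14: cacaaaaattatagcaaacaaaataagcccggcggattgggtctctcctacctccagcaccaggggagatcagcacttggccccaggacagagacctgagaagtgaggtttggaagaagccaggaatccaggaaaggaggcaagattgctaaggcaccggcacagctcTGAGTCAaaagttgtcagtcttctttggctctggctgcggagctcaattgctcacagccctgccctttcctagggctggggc
Slc7a1: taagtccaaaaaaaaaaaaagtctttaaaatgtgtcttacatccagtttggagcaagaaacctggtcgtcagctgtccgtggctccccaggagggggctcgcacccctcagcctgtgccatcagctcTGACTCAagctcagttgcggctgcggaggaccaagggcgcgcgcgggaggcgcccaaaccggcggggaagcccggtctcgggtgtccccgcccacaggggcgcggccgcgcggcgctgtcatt
Slc7a7: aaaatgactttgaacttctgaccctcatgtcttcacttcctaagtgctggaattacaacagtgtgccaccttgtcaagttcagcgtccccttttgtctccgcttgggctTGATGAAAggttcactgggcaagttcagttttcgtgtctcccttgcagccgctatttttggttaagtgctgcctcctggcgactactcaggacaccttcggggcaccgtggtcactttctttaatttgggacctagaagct
The motif begins 82 bases before the start in Slc6a14, 123 in Slc7a1 and 141 in Slc7a7. A match is a string of letters in the window and no evidence that a factor bound there.

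Several genes had more than 1 probe set, and these did not always give the same answer. For the calls above, other probe sets gave 50 readings, of which 25 passed in the same direction, 23 had the same sign and did not pass, and 2 had the opposite sign. For Slc6a8, both probe sets rose after control day 1.5, but at released day 4.5 the chosen one was at 12.16 and 11.97 while the other had a mean of 9.51. For Slc7a1 the second probe set gave 0.81 ± 0.53 between released day 4.5 and control day 3.5 (adjusted p = 0.470). From released day 3.5 to 4.5 it gave 0.81 (adjusted p = 0.370), where the chosen one passed. For Slc7a6 it gave 0.85 ± 0.37 in that comparison (adjusted p = 0.244), and in U0126 against control it fell by 2.02 ± 0.37 (adjusted p = 0.00763) where the chosen one did not pass. The second probe set of Slc6a14 gave -0.70 ± 0.25 under U0126 (adjusted p = 0.101), and rose on release (1.50 ± 0.25, adjusted p = 0.00206). That of Slc6a9 fell from control day 1.5 to day 2.5 (-1.69, adjusted p = 3.27e-04). It did not pass from control day 2.5 to day 3.5 (-0.13, adjusted p = 0.792) or on release (-0.06, adjusted p = 0.893). Of the 3 other probe sets of Slc38a9, 1 passed the interaction test (-2.53 ± 0.39, adjusted p = 0.0160) and the others did not (-1.36 and -0.41, adjusted p = 0.124 and 0.752). Slc7a6os, on the opposite strand beside Slc7a6, was high at control day 1.5 (10.60 and 10.61) and lowest at released day 4.5 (8.85 and 8.81).

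**Figure D5:**
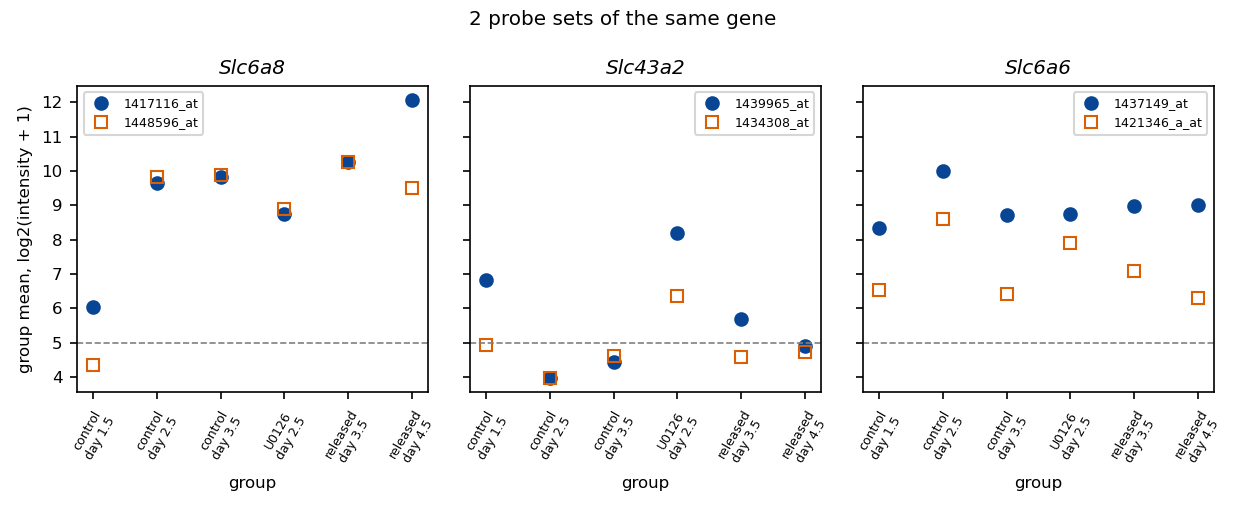
Group means of level, log2(intensity + 1), of 2 probe sets each of Slc6a8, Slc43a2 and Slc6a6 in the 6 groups; filled circles are the probe sets used and open squares the others, with level 5 dashed. Those of Slc6a8 part at released day 4.5, with means of 12.07 and 9.51, and both of Slc43a2 have their highest mean under U0126.

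Genes that sense or use amino acids were counted from 5 lists drawn up for this question. Cytosolic aminoacyl-tRNA synthetases, which load amino acids onto tRNA, were mostly higher after the 2-cell stage: 15 of 19 tested were higher at control day 2.5 and 1 (Iars) was lower, where 28.0% of all tested genes were higher and 27.4% lower, with a median of 1.57 against 0.09 for all genes. Lars rose by 2.62 ± 0.25 (adjusted p = 9.55e-06) and Mars1 by 2.77 ± 0.38 (adjusted p = 1.31e-04). In each of the other 7 comparisons 0 of the 19 passed in limma, with 0 to 2 of them at an unadjusted p under 0.05. Of all tested genes, between 2.34% (the interaction) and 28.2% (release from U0126) passed in those comparisons.

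Of 33 tested genes of amino acid sensing by mTORC1, 6 were higher and 1 lower under U0126, where 13.9% of all tested genes passed. The paralogous Rag GTPases, which tether mTORC1 to the lysosome, moved in opposite directions. Rragc read 10.63 and 10.07 under U0126 and 8.38 and 8.17 in controls (2.08 ± 0.30, adjusted p = 0.00252). Rragd read 9.94 and 9.25 against 11.71 and 11.67 (-2.09 ± 0.28, adjusted p = 0.00199). Both lay between the control day 1.5 arrays, at 11.93 and 12.40 for Rragc and 5.25 and 5.38 for Rragd, and the control day 2.5 arrays. Fnip2, a partner of the Rag regulator folliculin, was higher by 2.15 ± 0.40 (adjusted p = 0.00757), which did not pass without replicate 1 of control day 2.5 (0.0655). On release, 3 of the 33 rose and 6 fell, a share near the 28.2% of all tested genes, with Rragd up by 2.37 ± 0.28 (adjusted p = 2.93e-04) and Rragc down at -1.70 ± 0.30 (adjusted p = 0.00222). Between released day 4.5 and control day 3.5, 0 of the 33 passed in limma, with 5 at an unadjusted p under 0.05. Of all tested genes 5.88% passed there.

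Amino acid response genes, targets of the GCN2 and ATF4 pathway and enzymes of amino acid synthesis, were called in 3 of 25 tested under U0126, 2 higher and 1 lower, near the 13.9% of all tested genes. At released day 4.5 against control day 3.5, 4 of 25 were higher and 1 lower, where 3.85% and 2.03% of all tested genes were. Aldh18a1, an enzyme of proline synthesis, read 8.09 and 8.17 against 5.01 and 3.97 (3.64 ± 0.45, adjusted p = 0.00192). At control day 1.5 it read 7.65 and 7.98. Nupr1, a stress-response gene, read 6.76 and 7.36 against 3.91 and 3.89, at least 4.17-fold higher (fitted 3.16 ± 0.37, adjusted p = 0.00162). It was also at 5.93 and 5.84 in released day 3.5 embryos.

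Among 6 tested transporters of other families, the peptide carrier Slc15a2 was the one of largest change. It was at most 3.43 on the control day 1.5, control day 2.5 and U0126 arrays, and reached 7.72 and 7.15 at control day 3.5 and 12.61 and 12.87 in released day 4.5 embryos. The last difference was 5.31 ± 0.55 (adjusted p = 0.00104). Of 9 tested genes that make or use creatine, betaine and taurine, 1 was higher and 2 lower under U0126, against 9.21% and 4.72% of all tested genes. Chdh, which oxidises choline toward betaine, read 6.92 and 6.93 against 4.35 and 4.41, a fitted difference of 2.54 ± 0.32 (adjusted p = 0.00171) and at least 3.79-fold from level 5. The creatine kinase Ckmt1 read 5.85 and 6.37 against 9.68 and 8.65 (-3.06 ± 0.40, adjusted p = 0.00197).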

How the data were processed

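RNA of ICR mouse embryos was measured on 12 Affymetrix whole-genome mouse arrays, after 2-cycle labelling per the labels' protocols. The deposited values are linear intensity values per probe set, made with GCRMA per the submitters' processing notes, and the design text adds that GCOS 1.2 and GeneSpring 7.3 were used; scaling in the latter is not given in the sources. Arrays carry no read depth, so 2 arrays per group limit the precision (median SE of a difference 0.348). Symbols came from the platform annotation: 34958 of 45101 probe sets had 1 symbol, 932 had several and were left out, 1 of them naming a family member. All 63 symbols matched RefSeq by Entrez ID.

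Levels are log2(intensity + 1). All 12 arrays were fitted together with a mean per group in limma 3.58.1 (R 4.3.3), with empirical Bayes moderation (residual df 6, prior df 4.51) and Benjamini-Hochberg adjustment over 9930 genes at level 5 or more on at least 2 arrays; an adjusted p under 0.05 is a call. The fit was also run on simulated data with independent noise on each array. Those data lack the correlation between same-numbered arrays given below, so they do not show the error rate for the real arrays. Where a group lay below level 5, "at least" folds set it at 5 and take the mean of the other group's 2 arrays, so a single array can lie nearer. Fold changes are on the log2(intensity + 1) scale, which understates changes of low genes.

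Every member called is named, with a set of transporters named whatever their result and up to 4 genes of largest difference per pathway list; the second probe sets described, and the counts without Slc7a8, were chosen after seeing the data. The members and lists were chosen with earlier results of these data known. The difference between replicates 1 and 2 correlated between groups at r from 0.125 to 0.417 over all 15 pairs of groups. The labels do not say whether arrays of the same replicate number came from the same experiment, so their pairing is not known. The main tests left the replicate number out, and it entered only as a block among the alternatives. Alternatives were the pseudocount, the filter, median centring, the replicate block, the probe set rule, limma's trend and robust options, the arrays fitted and leaving out each array.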

Additional observations from a re-analysis of the deposited data

Results flagged for a closer look

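For 3 transporters the step to morula or blastocyst differed between released and control embryos by limma's interaction test. It began at 8 cells in released and at 4 to 8 cells in control embryos. The value was 2.21 for Slc7a8 and 2.34 for Slc7a7, whose steps were larger in released embryos, and -3.09 for Slc38a9, whose step was smaller. Slc7a8 was above level 5 only at released day 4.5 and was tested only through those arrays, so its value followed from the filter and is a description. The chosen probe set of Slc38a9 was already higher in released day 3.5 (6.94 and 6.81) than in control day 2.5 embryos (5.52 and 3.90). Its other probe sets gave 1.52, 0.65 and 0.15 in that comparison by limma (adjusted p = 0.00995, 0.193 and 0.842).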

How the results depend on the processing

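Of 66 calls of a transporter in a comparison, 26 held when each array was left out in turn, 40 were lost at least once and 7 were lost each time; none changed direction. The 66 include 3 of Slc7a8, which the filter on low values fixed. Leaving out 1 array gave 15 to 17 calls from control day 1.5 to 2.5, 4 to 5 from control day 2.5 to 3.5, 2 to 4 under U0126, 6 to 9 on release, 1 to 3 for released day 3.5 against control day 2.5, 1 to 6 for released day 4.5 against control day 3.5, 2 to 6 from released day 3.5 to 4.5, and 0 to 1 for the interaction. Under U0126, 3 transporters were called with no filter on low values, 9 with the replicate block and 0 in a fit of the 4 arrays compared. These fits called 1118, 2061 and 0 of all genes, against 1384 in the main fit. On release, 6 were called when only the arrays compared were fitted, with 1381 of all genes against 2799 in the main fit. For the interaction, 5 were called with a pseudocount of 16 and 6 with the replicate block. These fits called 344 and 615 of all genes, against 232 in the main fit. The cause was not tested. The block lost 0 of the 66 calls. No other planned setting moved a count by more than 1.5 times. Of the 66 calls, 4 were lost with a pseudocount of 16, 16 with no filter, 2 with median centring, 2 without probe sets ending in _x_at or _s_at, 4 with trend and robust options and 20 with only the arrays compared; with the mean of all probe sets 10 of 60 were lost. Median centring moved the median of all genes from 0.11 to -0.09 under U0126, from 0.09 to -0.12 from control day 2.5 to 3.5, from 0.09 to -0.11 for released day 3.5 against control day 2.5 and from -0.13 to 0.04 for the interaction. The other probe set of Slc6a8, an alternative chosen after seeing the data, reversed its sign in 2 comparisons, to -0.36 for released day 4.5 against control day 3.5 and -0.75 from released day 3.5 to 4.5. The number of arrays, 2 per group, and levels near 5 limit what could be called.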
